A study of Mus musculus with 6 samples.

Results

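The kappa light chain genes described here are the middle IGKV genes of the mouse kappa locus, most of them of the IGKV4 family. They were chosen by name only: a clonotype (1 distinct rearranged CDR3 nucleotide sequence with its V and J gene) was a member when the number after the first dash of its best-scoring V gene lay between 49 and 95 and the gene was not of the IGKV10, IGKV17 or IGKV19 family. The rule took 541 of 1818 kappa clonotypes from the iB-μMT mouse and 499 of 1696 from the untransplanted B6 mouse. They carried 37 of the 102 V genes found in the 2 kappa libraries, 34 in iB-μMT, 35 in B6 and 32 in both.

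The study asked whether B cells grown in mice from embryonic stem cells carry a diverse receptor repertoire. Heavy, kappa and lambda chain sequences were deposited as 6 libraries from naïve follicular B cells sorted from spleen by surface markers (IgD++ IgM+ CD23++ CD21+ and lineage-negative among them), and the 2 kappa libraries were used here. The iB-μMT mouse was a sublethally irradiated μMT recipient (B6.129S2-Ighm tm1Cgn/J, unable to make its own B cells), sampled 4 weeks after transplantation of induced hematopoietic progenitor cells (iHPCs) and kept on doxycycline water. The iHPCs came from iR9X2, a single embryonic stem cell line of C57BL/6 background with a doxycycline-inducible Runx1-p2a-Hoxa9-t2a-Lhx2 cassette at Rosa26 and GFP at Hipp11. The B6 mouse was a C57BL/6 control animal without a transplant, and the labels give no age for either animal, while by the age range in the methods the recipients were young adults at irradiation. Each group was 1 library, so genotype, transplantation, irradiation, doxycycline, animal and library cannot be told apart, and every test below compares 2 libraries or the clonotypes within 1 library.

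A kappa chain gene is built by joining 1 of many V genes to 1 of the functional J genes, IGKJ1, IGKJ2, IGKJ4 or IGKJ5, and the third complementarity-determining region (CDR3) is encoded across that join. In mouse names the number after the dash counts a V gene's place from the J genes, so the members lie neither nearest to the J genes nor at the far end. IGKV4 is the largest mouse kappa family. Unlike heavy chain joins, kappa joins usually receive few added nucleotides, so the germline V end largely sets the sequence of the CDR3.

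All 37 member genes matched a RefSeq entry on GRCm38.p6 (the build whose UCSC name, mm10, stands in the submitters' processing notes), on chromosome 6 between positions 68755038 and 69701287, which is 1021 to 1967 kb from IGKJ1. The label held: IGKV4 made up 466 of the 541 member clonotypes (86.1%, 95% Wilson interval 83.0 to 88.8) in iB-μMT and 434 of 499 (87.0%, 83.7 to 89.6) in B6, over 31 genes. The other members were IGKV1-88, IGKV12-67, IGKV12-89, IGKV13-84, IGKV13-85 and IGKV13-87, which stand among the IGKV4 genes on the chromosome.

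The V-encoded CDR3 ends are shown because they decide which member genes can be told apart. Each was read from clonotypes whose CDR3 matched the aligner's V reference up to its last base. Capitals mark bases that differ from the same position of the IGKV4-59 end, counted from the conserved cysteine codon at the 5′ end.
IGKV4-59: tgccagcagtggagtagtaacccaccca
IGKV4-68: tgccagcagtggagtagtaacccaccca
IGKV4-72: tgccagcagtggagtagtaacccaccca
IGKV4-55: tgccagcagtggagtagtTacccaccca
IGKV4-57: tgccagcaAAggagtagtTacccaccca
IGKV4-91: tgccagcagGgTagtagtaTAccacGca
IGKV4-50: tgccagcagtTTaCtagtTCcccaTcca
IGKV4-74: tgccaCcagtATCAtCgtTCcccaccca
IGKV4-70: tgccaTcagCggagtagtTaccca
IGKV4-86: tgccagcagtggaAtTAtCCTcTTA
IGKV4-57-1: tgccagcagtACagtGgtT
IGKV13-84: tgTcaAcagtATTgGagtaCTccTcc
IGKV13-85: tgTcaAcagtATTgGagtaCTccTcc
IGKV12-89: tgTcaAAaTGTgTTAagtaCTccTcc
IGKV1-88: tgcTTAcaAGgTaCACAtCaGccTcc

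IGKV4-59, IGKV4-68 and IGKV4-72 had the same CDR3 end, and IGKV4-55 differed from it at 1 base. The other pairs with identical ends were IGKV13-84 with IGKV13-85, IGKV4-69 with IGKV4-70, IGKV4-62 with IGKV4-78 and IGKV4-51 with IGKV4-58. Because each library listed every CDR3 nucleotide sequence only once, with a single best V gene, genes with the same end compete for the same clonotypes in these tables. The V reference reached 28 bases into the CDR3 for 24 of the 37 member genes, all of them IGKV4, whereas 26 bases was the length for 52 of the 65 other kappa V genes found. For IGKV4-57-1 the reference stopped after 19 bases.

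As a share of the repertoire, the middle IGKV genes took nearly the same part in both mice. They were 29.8% of kappa clonotypes (27.7 to 31.9) in iB-μMT and 29.4% (27.3 to 31.6) in B6, a difference of 0.336 percentage points with a 95% Newcombe interval of -2.69 to 3.35. Of sequencing reads they held less, 101959 of 562884 (18.1%) in iB-μMT and 83597 of 534314 (15.6%) in B6, which is 2.47 points more in iB-μMT. The intervals cover counting error only. Whether reads carried molecular identifiers is not given in the sources used here, so reads are not taken as independent molecules. The median member clonotype had 34 reads in iB-μMT and 29 in B6, compared with 46 and 42 for the other kappa clonotypes. Clonotypes of a single read were 6.65% and 7.82% of members and 5.64% and 6.52% of the others. V genes with lower numbers held 44.2% and 42.3% of clonotypes, and those with higher numbers together with IGKV10, IGKV17 and IGKV19 held 26.0% and 28.3%.

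By family, IGKV4 held a smaller part of the member reads than of the member clonotypes, 73.4% in iB-μMT and 75.7% in B6. IGKV13 stood the other way, with 37 and 31 clonotypes (6.84% and 6.21% of members) but 16.4% and 19.3% of member reads. IGKV12 had 15 and 21 clonotypes (2.77% and 4.21%) with 7.03% and 4.16% of member reads. IGKV1-88, the single IGKV1 member, had 23 and 13 clonotypes (4.25% and 2.61%) with 3.17% and 0.878% of member reads. IGKV13 thus held more of the member reads than of the member clonotypes in both mice.

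No middle IGKV gene differed in clonotype share between the libraries after correction. Of 22 member genes with at least 20 clonotypes in both libraries together, 0 passed (two-sided Fisher's exact test, Benjamini-Hochberg over all 69 kappa V genes tested), where the background of calls over those 69 genes was 0%. At an unadjusted p under 0.05 there was 1 member gene, against 2.9% of all genes tested. The shares were higher in iB-μMT for 11 of the 22 and higher in B6 for the other 11, with a median difference of 0.00535 points, compared with -0.036 over all 69 genes. For 21 of the 22 the interval of the difference included 0. The other 15 member genes were too rare to test and together had 49 clonotypes in iB-μMT and 48 in B6. Over the 37 genes the clonotype shares of the 2 libraries ran in a similar order (Spearman's rho 0.90, a description over genes that share both libraries), while distance from IGKJ1 showed almost no relation to the number of clonotypes (rho -0.07).

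**Figure D1:**
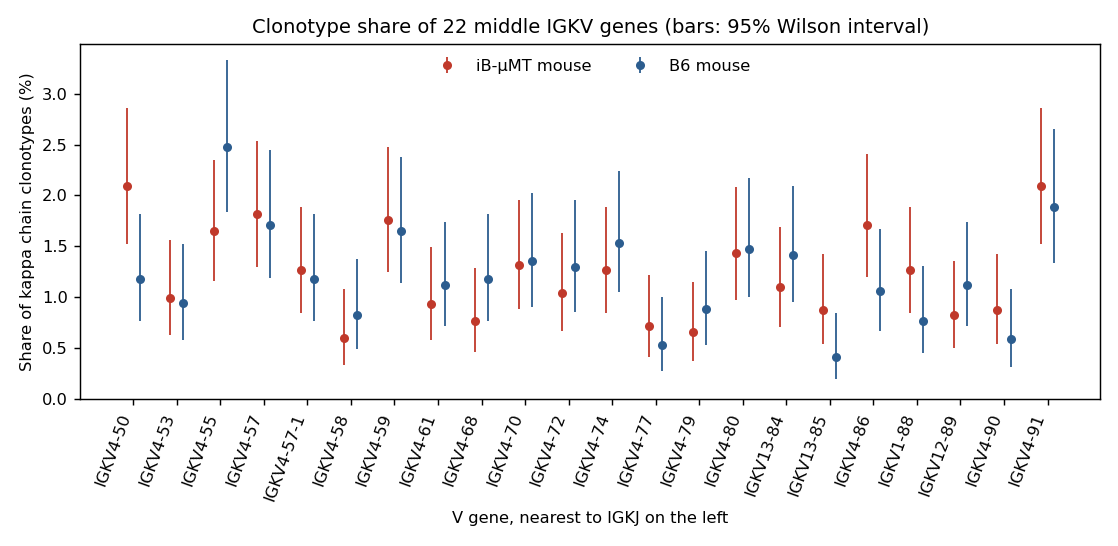
Share of all kappa clonotypes (percent, y axis) for the 22 middle IGKV genes with at least 20 clonotypes together, ordered from the gene nearest to IGKJ on the left; points are the library values of iB-μMT (red) and B6 (blue), and bars are 95% Wilson intervals. The bars of both mice overlap at every gene, and the shares lie between 0.413% and 2.48% with no steady rise or fall along the locus.

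Use was spread over many genes, and the 5 genes with the most clonotypes held 31.6% and 30.3% of member clonotypes. IGKV4-50, the member nearest to IGKJ (chromosome 6, 69700767 to 69701287), was the gene below an unadjusted p of 0.05. It had 38 clonotypes (2.09%) in iB-μMT and 20 (1.18%) in B6, a difference of 0.911 points (0.0617 to 1.78; Fisher's exact test p = 0.0347, adjusted p = 1). Its read share was 0.526% and 0.273%. The gene was therefore higher in iB-μMT on both scales, but not beyond what testing 69 genes allows.

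IGKV4-91, near the far edge (68768555 to 68769103), had 38 and 32 clonotypes. IGKV4-55 had the largest difference in the other direction, with 30 clonotypes in iB-μMT and 42 in B6 (-0.826 points, -1.81 to 0.119). IGKV4-86 had 31 and 18 clonotypes (0.644 points, -0.146 to 1.45) and 0.492% and 0.143% of reads. These intervals include 0 although the counts differ. IGKV1-88 had 0.499 points more in iB-μMT (-0.186 to 1.20), again with an interval over 0.

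The remaining frequent members had similar counts in both mice. IGKV4-57 had 33 and 29 clonotypes, IGKV4-80 had 26 and 25, IGKV4-70 had 24 and 23, and IGKV4-74 had 23 and 26. IGKV4-57-1 had 23 and 20, IGKV4-61 had 17 and 19, and IGKV12-89 had 15 and 19. For IGKV12-89 the reads pointed the other way, with a share of 1.27% in iB-μMT and 0.649% in B6. When the 22 genes were put in order of clonotype share, the interval of each gene overlapped that of the next in both mice (21 of 21 neighbouring pairs). The order of neighbours was therefore not resolved beyond counting error.

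Some member genes were hardly used. RefSeq lists 60 V genes and pseudogenes that meet the naming rule, 32 as V segments and 28 as pseudogenes. Of the V segments 31 were found, IGKV4-73 being the exception. Of the pseudogenes 6 were found, with 15 clonotypes in iB-μMT and 19 in B6, none of which had a stop codon in the CDR3. IGKV4-77 and IGKV4-56 are named after their values were seen. IGKV4-77 gave 13 and 9 of these clonotypes and passed the minimum for testing, and IGKV4-56 gave 0 and 4. IGKV12-67 had 0 and 2 clonotypes, where 0 of 1818 allows a share of up to 0.165% (a limit of 3 clonotypes over the total), and IGKV13-87 had 1 and 0, where 0 of 1696 allows up to 0.177% by the same limit.

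Genes with identical CDR3 ends were also counted as 1 group, with single-gene values beside the joined ones. IGKV4-59 had 32 and 28 clonotypes, IGKV4-68 had 14 and 20, and IGKV4-72 had 19 and 22. IGKV4-72 held 0.478% of reads in iB-μMT and 0.152% in B6. Joined, the 3 genes had 65 clonotypes (3.58%) in iB-μMT and 70 (4.13%) in B6, a difference of -0.552 points (-1.85 to 0.726; Fisher's exact test, adjusted p = 1), and 4.43% and 4.15% of kappa reads. They were then the most read member group in both mice. IGKV13-85 had 16 and 7 clonotypes with 2.36% and 1.96% of reads, and IGKV13-84 had 20 and 24 with 0.605% and 1.06%. Joined, the pair had 36 and 31 clonotypes and 2.97% and 3.01% of reads. IGKV4-69 with IGKV4-70 had 33 and 27 clonotypes and 0.680% and 0.570% of reads.

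The exchange of names could be seen directly. In 31 cases the same CDR3 and J gene occurred in both libraries under different V names, and in 28 of these the other name stood among the lower-ranked V hits. All 31 carried a member name in both mice, and they held 12.2% of member reads in iB-μMT and 10.98% in B6. Of the 31, 18 were exchanges among IGKV4-59, IGKV4-68 and IGKV4-72, and 6 were exchanges between IGKV13-84 and IGKV13-85. The most read was a join to IGKJ2, named IGKV4-59 with 2898 reads in iB-μMT and IGKV4-68 with 1707 reads in B6. Hence a difference in a single one of these genes is uncertain. More than 1 V hit was listed for 37.3% and 43.7% of member clonotypes, compared with 26.2% and 26.7% of the others.

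The most read member clonotypes show how these chains are built. The 10 with the largest mean read share in both mice, when matched by V name, are printed. Each is the CDR3 of 33 bases from the cysteine codon to the phenylalanine codon. Capitals mark the bases that follow the V-aligned part.
IGKV4-59 with IGKJ5: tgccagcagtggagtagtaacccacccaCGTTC
IGKV4-68 with IGKJ5: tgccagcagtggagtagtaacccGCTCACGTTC
IGKV13-85 with IGKJ2: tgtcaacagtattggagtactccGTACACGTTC
IGKV13-85 with IGKJ5: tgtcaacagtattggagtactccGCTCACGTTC
IGKV4-68 with IGKJ4: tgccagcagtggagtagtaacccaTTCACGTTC
IGKV13-84 with IGKJ1: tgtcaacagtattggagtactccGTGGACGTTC
IGKV13-85 with IGKJ4: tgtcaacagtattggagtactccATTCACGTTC
IGKV4-55 with IGKJ5: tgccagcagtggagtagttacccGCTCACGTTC
IGKV4-91 with IGKJ4: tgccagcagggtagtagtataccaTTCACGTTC
IGKV4-53 with IGKJ5: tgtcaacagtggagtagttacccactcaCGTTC

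All 10 encoded a CDR3 of 9 residues without the 2 flanking residues, and 7 of the 10 came from genes with a shared CDR3 end. Joins named differently in the mice were not matched in this ranking. The IGKJ5 join named IGKV4-68 in iB-μMT and IGKV4-59 in B6 had 0.470% and 0.419% of reads. The IGKJ2 join named IGKV4-59 and IGKV4-68 had 0.515% and 0.319%. Both were above the last join printed, IGKV4-53 with IGKJ5 (0.295% and 0.268%). The IGKV4-59 join to IGKJ5 had 5928 reads in iB-μMT (1.05% of kappa reads) and 5812 in B6 (1.09%). Its CDR3 aligned to all 28 V bases and that of the IGKV4-68 join to IGKJ5 to 23, and in both the end of this part aligned to J as well. The IGKV4-68 join had 0.838% and 0.937% of reads. The IGKV13-85 joins to IGKJ2 and IGKJ5 had 0.801% and 0.731%, and 0.630% and 0.681%. The widest gap among the 10 was the IGKV4-91 join to IGKJ4, with 0.374% in iB-μMT and 0.212% in B6. Together the 10 most read members of each library held 32.4% of member reads in iB-μMT and 36.5% in B6.

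The clonotypes of the middle genes had fewer CDR3s of 8 residues than the other kappa clonotypes, in both mice. In iB-μMT 80 of 541 members had 8 residues (14.8%), against 25.1% of the others, a difference of -10.3 points (-13.9 to -6.30; Fisher's exact test within the library, adjusted p = 1.63e-05). In B6 it was 76 of 499 (15.2%) against 25.1%, a difference of -9.83 points (-13.7 to -5.67; Fisher's exact test, adjusted p = 5.97e-05). IGKV4 alone had 13.9% and 13.6%, whereas the members outside IGKV4 had 15 of 75 in iB-μMT and 17 of 65 (26.2%) in B6, given without a test. A CDR3 of 9 residues, the commonest length, did not pass in either mouse, with 46.2% of members against 47.6% of others in iB-μMT and 52.7% against 52.0% in B6. CDR3s of 11 residues made up 9.98% and 9.62% of members and 4.23% and 2.76% of the others, given without a test because this length was not among the 18 tests (9 measures in each library). Of the 18, 4 passed.

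**Figure D2:**
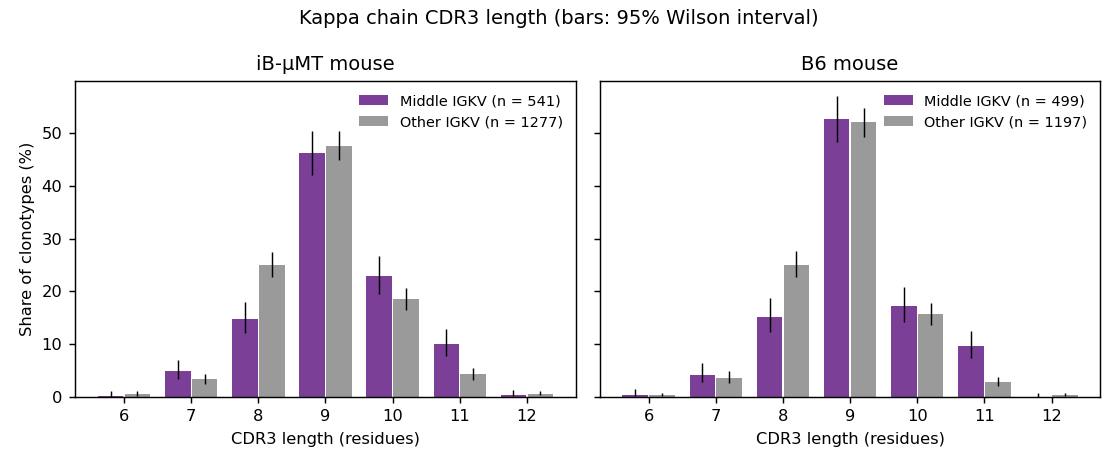
Share of clonotypes (percent, y axis) by CDR3 length in residues (x axis) for middle IGKV clonotypes (purple) and other kappa clonotypes (grey) in iB-μMT (left) and B6 (right), with 95% Wilson intervals as bars. In both mice the purple bar is lower at 8 residues (14.8% and 15.2% against 25.1%) and higher at 11.

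The part of the CDR3 aligned to V was also longer. V bases here are CDR3 bases aligned to V, including those that aligned to J as well. Such overlap was more frequent among members, as given below, and most member references were longer. Members had a mean of 24.0 V bases in the CDR3 (SD 2.91 over 541 clonotypes) in iB-μMT and 24.1 (SD 2.94 over 499) in B6, and the others had 23.04 and 22.97. Joins with exactly 28 V bases were 93 member clonotypes (17.2%) in iB-μMT and 88 (17.6%) in B6, and 0% of the others, whose references were mostly shorter. At least 27 V bases were aligned in 21.6% of members in each mouse and in 1.64% and 1.17% of the others. All of these members were IGKV4, the only member family with references beyond 26 bases. These long ends supplied 43 of 54 member CDR3s of 11 residues in iB-μMT and 34 of 48 in B6. Joins with 23 V bases, the commonest class, were 20.5% and 23.2% of members and 27.5% and 30.5% of the others. From a reference of 28 bases that class is a loss of 5 bases. A loss of 5 was seen in 16.3% and 17.03% of members and in 15.9% and 18.2% of the IGKV4 members alone. Outside IGKV4 it was seen in 14 of 75 members (18.7%) in iB-μMT and 6 of 65 (9.23%) in B6. In the other kappa clonotypes it was 7.05% and 6.02%. From a reference of 26 bases, the commonest among other genes, the class of 23 bases is a loss of 3. A loss of 3 was seen in 24.7% and 26.8% of the others and in 13.9% and 14.2% of members.

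**Figure D3:**
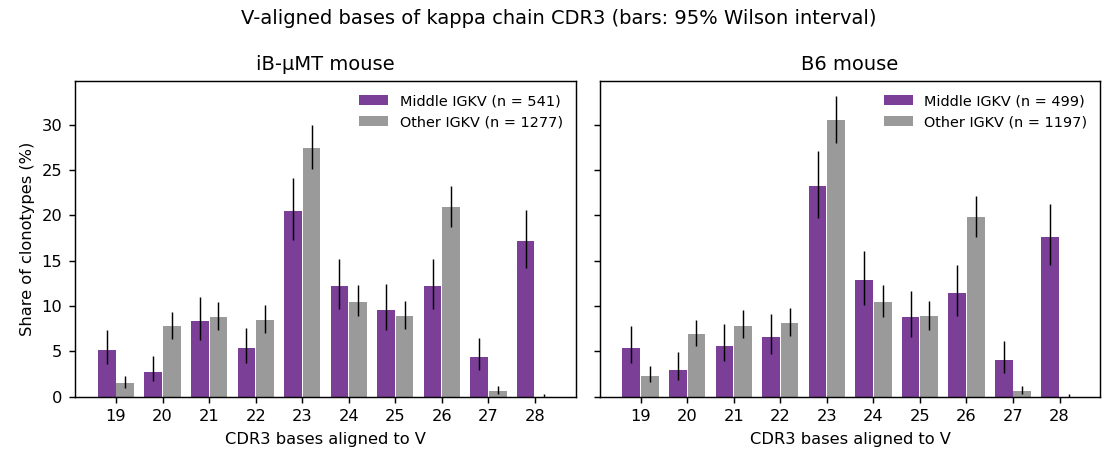
Share of clonotypes (percent, y axis) by the number of CDR3 bases aligned to the V gene (x axis, 19 to 28) for middle IGKV clonotypes (purple) and other kappa clonotypes (grey) in each mouse, with 95% Wilson intervals as bars. The class of 28 bases holds 17.2% and 17.6% of the middle IGKV clonotypes and none of the others, and 23 bases is the commonest class in all 4 sets. The V reference of most other genes ended before 28 bases, so few of their clonotypes could fall in that class.

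Between the mice, fewer CDR3s of 9 residues and more of 10 were counted in iB-μMT, among members and other kappa clonotypes alike in direction. The share of 9 residues was 46.2% and 52.7%, a difference of -6.49 points (-12.5 to -0.414), and that of 10 residues 22.9% and 17.2%, a difference of 5.69 points (0.801 to 10.5). Among the other kappa clonotypes the shares were 47.6% and 52.0% for 9 residues and 18.5% and 15.6% for 10. Counted among the members that were not found in both libraries, the differences were -9.86 points (-17.6 to -1.98) and 9.60 points (2.52 to 16.5). By reads the shares of 9 residues were closer, 87.3% and 89.8%. These intervals rest on 1 library per mouse and were not adjusted for the number of features compared. Lengths of 8 and 11 residues differed by -0.443 and 0.362 points, with intervals over 0. The lengths of 10 and 11 residues were not among the 9 measures. A proline stood at residue 7 of 210 of 250 member CDR3s of 9 residues (84.0%) in iB-μMT and 230 of 263 (87.5%) in B6, close to the 85.5% and 90.2% of the others.

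Most member joins had no nucleotide between the V and J ends. This held for 444 of 541 (82.1%) in iB-μMT and 410 of 499 (82.2%) in B6, and neither differed from the others (81.5% and 79.8%) at the adjusted threshold. Of the 43 clonotypes of IGKV4-57-1, whose reference stopped after 19 bases, 41 had nucleotides between V and J. Whether these were V bases missing from the reference or added nucleotides was not tested. Without that gene the member shares were 85.5% and 85.4%. The difference from the others in B6 then passed (5.60 points, Fisher's exact test, adjusted p = 0.0296), an alternative chosen after seeing the data. Only the members were reduced in this way. Among the other kappa genes, 1 with a reference of 21 bases and 1 of 23 were kept. The effect of leaving out short references on both sides was not tested. The last V base and the first J base overlapped, so that the same bases could come from either gene, in 42.5% and 45.1% of members and in 30.9% and 32.8% of the others. A stop codon was present in 4 members (0.739%) in iB-μMT and 5 (1.002%) in B6. A mismatch to the V reference within the CDR3 was seen in 16.5% and 18.6% of members, and such clonotypes had a median of 3 and 6 reads, against 39 and 34 for members without one.

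All 4 J genes were joined to the middle genes in both mice. IGKJ1 took 30.7% of member clonotypes in iB-μMT and 26.7% in B6, IGKJ2 24.8% and 27.5%, IGKJ4 17.4% and 16.03%, and IGKJ5 27.2% and 29.9%. The interval of the difference between the mice included 0 for each, the widest gap being 4.03 points for IGKJ1 (-1.48 to 9.48). Against the other kappa clonotypes no J gene passed the adjusted threshold in either mouse. The nearest were IGKJ1 in B6, 26.7% against 32.7% (Fisher's exact test, adjusted p = 0.0555), and IGKJ2 in iB-μMT, 24.8% against 30.0% (adjusted p = 0.0796). With clonotypes of at least 2 reads the IGKJ1 difference in B6 was -6.97 points and passed (Fisher's exact test, adjusted p = 0.0245).

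By reads, the middle genes leaned to IGKJ5. It held 40.02% of member reads in iB-μMT and 48.2% in B6, compared with 26.8% and 29.1% of the reads of the other kappa clonotypes. IGKJ1 held 20.1% and 17.6% of member reads and 34.0% and 30.6% of the others. Within IGKV4 alone IGKJ5 had 45.4% and 54.1% of reads, whereas in the members outside IGKV4 it had 25.1% and 30.0%. The IGKJ5 joins of IGKV4-59 and IGKV4-68 printed above contributed to this share in both mice. A read share can rest on few deeply read joins, and no test was made of it.

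Of the possible pairs between the member V genes found and the 4 J genes, 113 of 136 occurred in iB-μMT and 116 of 140 in B6, with 105 in both. None of 36 kappa V-J pairs tested passed (background 0% at the adjusted threshold and 0% unadjusted), 9 of them with a member V gene. Some pairs had uneven counts, named here after their values were seen. IGKV4-50 with IGKJ1 had 18 clonotypes in iB-μMT and 9 in B6, IGKV4-91 with IGKJ4 had 16 and 7, and IGKV4-55 with IGKJ1 had 8 and 15. These were tested and did not pass. IGKV4-86 with IGKJ1 had 9 and 1, too few to be tested.

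Of the member clonotypes, 232 had the same CDR3 nucleotide sequence, V gene and J gene in both mice, 309 were found in iB-μMT only and 267 in B6 only. The 232 held 78.5% of member reads in iB-μMT and 80.8% in B6, compared with 94.6% and 95.9% of reads for the joins shared among other kappa genes. As a share of clonotypes, members were found in both libraries less often than the others, 42.9% against 51.8% in iB-μMT (Fisher's exact test, adjusted p = 0.00292) and 46.5% against 55.3% in B6 (adjusted p = 0.00424). That call depended on the V name. When the same CDR3 and J gene were counted as found in both whatever the V gene, 263 member joins matched, the shares were 48.6% against 53.6% and 52.7% against 57.2%, and the differences no longer passed (Fisher's exact test, adjusted p = 0.184 and 0.247). The matched joins then held 90.8% and 91.7% of member reads.

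The shared member clonotypes were the deeply read ones and their read shares ran together. Their median was 110 reads in iB-μMT and 71 in B6, against 18 and 16 for members found in 1 mouse. The other kappa clonotypes had the same pattern, with medians of 161.5 and 134 reads when shared and 22 and 17 when not. Across the 232 clonotypes, which share both libraries and are not independent replicates, Spearman's rho between the read numbers was 0.82 and Pearson's r of the log10 values was 0.85. The read shares lay within 2-fold of each other for 153 of them (65.9%), and 136 were higher in iB-μMT and 96 in B6. Over the 662 shared clonotypes of the other kappa genes, Spearman's rho was 0.89 and 67.7% lay within 2-fold. The largest departure among the members was an IGKV4-86 join to IGKJ2, with 0.0751% of reads in iB-μMT and 0.00187% in B6. Of the shared members 89.7% had no nucleotide between V and J, compared with 76.4% and 75.7% of the members found in 1 mouse. Among the other kappa clonotypes this was 90.6% of the shared ones, and 71.7% and 66.4% of the rest. Among clonotypes not found in both libraries, the middle genes had 33.4% of clonotypes in iB-μMT and 33.3% in B6, and 46.6% and 46.2% of the reads. Of these member reads, 56.96% and 57.08% lay in the 31 joins present in both mice under another V name, so the read share rested largely on the exchange of names.

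**Figure D4:**
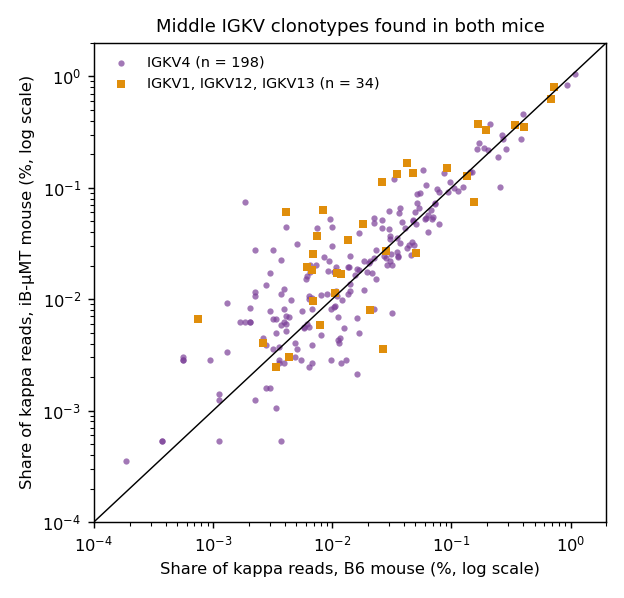
Share of kappa reads in B6 (percent, x axis, log scale) and in iB-μMT (percent, y axis, log scale) for the 232 middle IGKV clonotypes found in both, 198 of IGKV4 (purple points) and 34 of IGKV1, IGKV12 and IGKV13 (orange squares); the line marks equal shares. The points with the largest shares lie near the line, and the scatter widens towards low shares.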

How the data were processed

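Kappa chain transcripts of sorted splenic follicular B cells were sequenced from 1 iB-μMT mouse and 1 B6 mouse. The submitters' processing notes name bcl2fastq and the mm10 build, and the methods name MiXCR for V and J assignment. The deposited clonotype tables give a read count, a fraction of library reads (the count over its library total) and a minimum CDR3 quality score, all made by the authors. Columns and tables of the heavy and lambda chains were not used here.

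Every clonotype was taken as deposited, without a read minimum, and V and J were the first-ranked hits. Library depth was 562884 and 534314 reads. CDR3 length left out the 2 flanking residues. Genes and V-J pairs with at least 20 clonotypes in both libraries together were tested with two-sided Fisher's exact tests and Benjamini-Hochberg adjustment over all kappa genes or pairs (threshold 0.05), and the test was tried on simulated data. Clonotype features were tested within each library over 18 tests. Named genes were the 15 members with the most clonotypes, the 3 largest differences in each direction, members with an unadjusted p under 0.05 and all members outside IGKV4. The members and lists were chosen with earlier results of these data known. Gene positions came from RefSeq, GRCm38.p6, by gene symbol. Alternatives covered read minima, equal read totals, shared clonotypes, merging, productive status, tied V hits and weighting. Python 3.11.15, SciPy 1.17.1, pandas 2.3.3 and statsmodels 0.14.6 were used.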

Additional observations from a re-analysis of the deposited data

How the results depend on the processing

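No paired analysis was possible because each group was 1 library. No replicate could be left out for the same reason. The count of V genes called stayed at 0 in all 10 alternatives, with 0 to 5 genes at an unadjusted p under 0.05 (Fisher's exact test). The lower share of 8-residue CDR3s among middle IGKV clonotypes passed in all 7 alternatives in each mouse, between -13.3 and -9.14 points in iB-μMT and between -12.9 and -9.45 in B6. Some feature differences that had not passed did so elsewhere. IGKJ1 in B6 was -6.97 points with at least 2 reads, -6.56 with at least 5 reads and -6.08 with productive clonotypes only. Without clonotypes found in both libraries, IGKJ2 in iB-μMT was -8.25 points and joins without added nucleotides in B6 were 9.30 points. Without IGKV4-57-1 among the members, and with the other kappa clonotypes unchanged, the latter was 5.60 points. Matching across libraries with any V gene gave -5.03 points in iB-μMT and -4.52 in B6 for clonotypes found in both, neither of which passed. Weighted by reads, the difference between the mice was 3.35 points for IGKJ2 and -8.20 for IGKJ5. By clonotypes each was -2.69 points, so the IGKJ2 difference changed sign. Leaving out IGKV4-57-1, matching with any V gene and joining genes with the same CDR3 end were chosen after seeing the data. Of the 19 named genes, 8 changed the sign of their difference under at least 1 of 8 alternatives, 5 of them when weighted by reads. IGKV4-50 was 1.83 points higher in iB-μMT without shared clonotypes, and IGKV12-89 was 0.624 points higher by reads. Apart from the identical CDR3 ends described above, the cause of these changes was not tested. With these clonotype numbers per gene, small differences between the libraries may go uncalled, and no smallest detectable difference is given here. Differences between animals cannot be judged with 1 library each.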
